A study of Mus musculus with 6 samples.

Results

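Srrm2, Dnajc17, Eif3c, Sgf29, Dvl1, Irak1, Inf2, Kcnip3, Pla2g7 and Cuedc2 are 10 genes whose signals in HuD pulldowns of mouse hippocampus were among the lowest relative to an IgG pulldown or to input RNA. For Srrm2 the name depleted does not hold, since its HuD signal was level with the input within its error and low only against IgG. They were read by 26 of the 45101 probe sets on the array, and they are 10 of the 18193 genes named by a probe set with 1 gene symbol. The genes were chosen by their measured signals in these same 6 arrays, so their differences between HuD and IgG and between HuD and input are given as a description, with no test. The aim was to separate genes that were low against both the IgG pulldown and the input from genes that were low against IgG with a signal on IgG beads above the input.

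The study measured RNA from hippocampus on 6 Affymetrix whole-genome mouse arrays, 1-colour arrays on which a gene is read by 1 or more probe sets. The HuD group held 3 arrays of RNA recovered on protein-G beads with anti-myc antibody from tissue carrying transgenic HuD. The IgG group held 2 arrays of RNA recovered on protein-G beads with non-immune IgG, and 1 array held total input RNA. The labels do not give the promoter of the transgene, the strain, age or number of animals, or whether IgG and input RNA came from the same transgenic tissue, and separate preparations are not mentioned. Title endings, le1 and e1_le1, divide the arrays into HuD 1, IgG 1 and the input on one side and HuD 2, HuD 3 and IgG 2 on the other, and their meaning is not stated.

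HuD, encoded by Elavl4, is a neuronal RNA-binding protein of the ELAV family, which binds AU- and U-rich stretches of mRNAs, mostly in 3′ untranslated regions, and is known for stabilising its targets during neuronal differentiation and plasticity. In such a pulldown the mRNAs held by the tagged protein are enriched, while RNA that sticks to beads or antibody is recovered with control IgG too. A transcript can therefore be low relative to IgG either because little of it came down with HuD or because much of it came down with IgG, and the input shows its level before any pulldown. The arrays share 1 scale level, so a low signal is low relative to the other RNA on that array.

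The mean signal after removal of the lowest and highest 2% of probe sets was 150 on all 6 arrays, and the median signal lay between 20.1 and 31.4. Elavl4 read 1689, 2010 and 2294 as the lowest, median and highest HuD signal, 766 and 642 on the IgG arrays and 597 in the input. The IgG arrays differed from each other more than the HuD arrays did, with an SD of log2 differences over probe sets of 0.495 against 0.324 to 0.396 for the pairs of HuD arrays. Ratios of 3′ to inner control probe sets, a sign of RNA integrity, separated HuD from IgG in 1 of 4 measures. The 3′ to middle ratio of actin was 2.27 to 4.31 on the HuD arrays, 6.81 and 10.2 on the IgG arrays and 3.82 in the input. That of Gapdh was 3.46 to 4.38 on the HuD arrays and 2.80 and 4.96 on the IgG arrays, and the 3′ to 5′ ratios of both genes overlapped between the groups too. The part of RNA integrity in the differences below was not tested. Of 12 neuronal markers, which define the labelled tissue together with glia, Snap25 reached 7146 in the input, while Prox1, a marker of dentate granule neurons, read 9.80. Summed signals of 12 neuronal markers were 31771 to 37440 on HuD arrays, 27710 to 28755 on IgG arrays and 26100 in the input. The brightest marker, Snap25, read 11136 to 16051 on HuD arrays and 6243 and 8139 on IgG arrays, and over the list 6 markers had a HuD mean below IgG and 6 above. Summed signals of 8 microglial markers were 1484 to 2017 on HuD arrays, 2925 to 4649 on IgG arrays and 4471 in the input. In the input Csf1r read 2993, Aif1 28.4 and Trem2 5.21, so the sum was mostly Csf1r. Csf1r read 782 to 1249 on HuD arrays and 1859 and 2679 on IgG arrays. Over this list 7 markers had a HuD mean below IgG and 1 above. In limma, 3 of the 8 microglial markers, 3 of 7 astrocytic, 2 of 6 oligodendrocytic and 1 of 4 endothelial ones were lower in HuD than in IgG. In these lists 0 were higher, while 2 of the neuronal markers were lower and 2 higher. Among all genes, each read by its brightest probe set, 12.1% were lower and 8.35% higher. Of 4 choroid plexus and blood markers and 3 cerebellar ones 0 passed, and Ttr, a choroid plexus marker, read 8913 in the input. The part of these cell types in the members' differences was not tested. In bulk samples such as these, fewer cells of a type and less RNA per cell cannot be told apart.

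Differences below are on the log2(signal + 32) scale and are followed by their standard error, which comes from the spread within the HuD and IgG groups; the input had 1 array and was assumed to vary like the pulldowns. The pseudocount of 32 damps the differences of dim probe sets. Across all genes, each read by its brightest probe set, the median difference was -0.11 for HuD minus IgG, -0.04 for HuD minus input and 0.02 for IgG minus input. Both HuD differences of a gene share the 3 HuD arrays, so they are set side by side and not counted as separate evidence.

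The members came from 2 rankings, 1 against IgG and 1 against the input. Among the 18193 genes, Dnajc17, Srrm2, Eif3c, Sgf29, Dvl1, Irak1 and Inf2 held ranks 3, 4, 5, 7, 8, 9 and 10 of the differences below IgG. Kcnip3, Pla2g7 and Cuedc2 held ranks 1, 3 and 5 of the differences below input, and ranks 70, 1419 and 44 below IgG. The edge of each ranking was not a gap. Inf2 stood at -2.28 against IgG and the next gene, Pygb, which is not a member, at -2.27, while Cuedc2 stood at -2.66 against input and the next gene, Pld3, at -2.65.

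A probe set was called lower than both when HuD lay at least 1 below IgG and at least 1 below the input on the log2 scale, a factor of 2, and every HuD array lay below both IgG arrays and the input. It was called gained on IgG when HuD lay at least 1 below IgG without overlap, less than 1 below the input, and both IgG arrays lay above the input. Of the 26 probe sets, 12 were lower than both, from 8 genes, and 3 were gained on IgG, from Srrm2 and Sgf29. A further 2 were lower than IgG only, and 9 met none of these descriptions. Over all probe sets tested, 5.14% were lower than both and 2.37% were gained on IgG. With each gene read by its brightest probe set, 8 members were lower than both and 2 were gained on IgG, beside 8.19% and 2.79% of all genes. Because both contrasts chose the members, nothing is read from the excess over those shares.

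**Figure D1:**
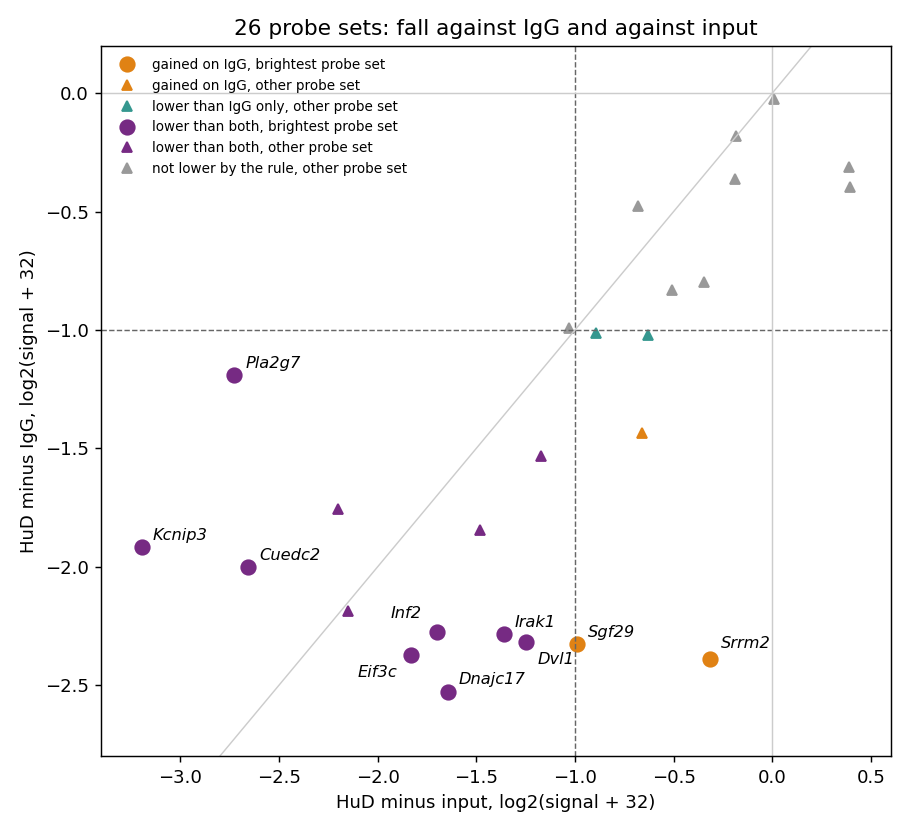
Each member probe set is placed by its HuD minus input difference against its HuD minus IgG difference, both on the log2(signal + 32) scale. Srrm2 lies near the bottom at -2.39 against IgG and close to 0 against input at -0.32. Kcnip3 lies farthest to the left, at -3.19 against input.

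**Figure D2:**
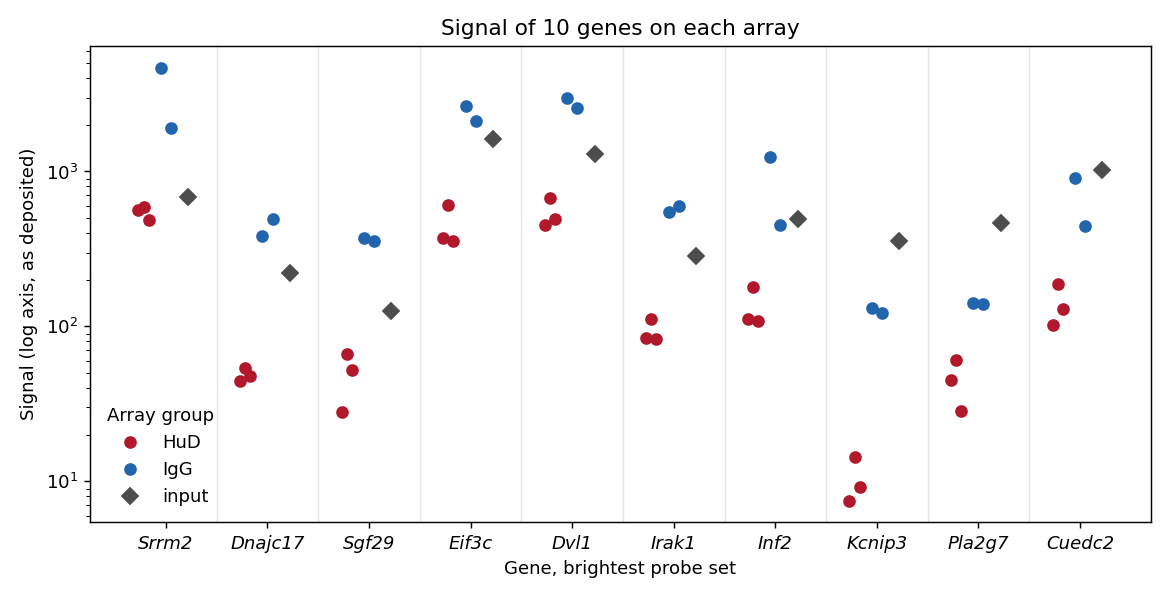
Signals of the brightest probe set of each of the 10 genes are shown for every array on a log axis, with 3 HuD arrays, 2 IgG arrays and 1 input array. All HuD points of each gene lie below both IgG points and below the input.

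Srrm2 had the clearest gain on IgG beads. It encodes a serine- and arginine-rich matrix protein of the spliceosome and of nuclear speckles. Its brightest probe set, 1438688_at, read 563, 587 and 487 on the HuD arrays, 4682 and 1899 on the IgG arrays and 685 in the input. The HuD arrays lay close to one another and just under the input, while both IgG arrays stood well above everything else. HuD was lower than IgG by a difference of -2.39 ± 0.36, 5.24-fold, and differed from the input by -0.32 ± 0.45, which is within its standard error. IgG lay 2.07 ± 0.48 above the input, and this made up 86.8% of the difference between HuD and IgG. Among all genes, Srrm2 held rank 12 for the height of IgG over input and rank 6352 for the depth of HuD below input. Its IgG arrays differed 2.47-fold, and the difference to IgG was -1.75 without IgG 1 and -3.03 without IgG 2. Its direction against the input was not settled, since scaling to the 75th percentile turned -0.32 into 0.04.

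Sgf29 encodes a chromatin reader subunit of the SAGA and ATAC histone acetyltransferase complexes. Its brightest probe set, 1451166_a_at, read 28.1, 65.9 and 52.0 on the HuD arrays, 374 and 355 on the IgG arrays and 125 in the input. The 3 groups did not overlap, with IgG on top, the input between and HuD at the bottom. HuD minus IgG was -2.33 ± 0.27, HuD minus input was -0.99 ± 0.34 and IgG minus input was 1.34 ± 0.37. The gene therefore stood just outside the limit of 1 against the input, and it moved to lower than both without HuD 2, without HuD 3, with median centring or with a pseudocount of 1 or 16. The height of IgG over input made up 57.5% of its difference to IgG, which was -2.96 with a pseudocount of 1. A dimmer probe set, 1437592_x_at, had the same order, with HuD minus IgG of -1.43 and HuD minus input of -0.66, and was gained on IgG too.

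Dnajc17 encodes a DnaJ-domain protein that acts with the splicing machinery. Probe set 1446928_at read 44.7, 54.2 and 47.6 on the HuD arrays, 382 and 492 on the IgG arrays and 220 in the input. The HuD arrays were nearly level and far below the rest. HuD minus IgG was -2.53 ± 0.23, 5.76-fold, and HuD minus input was -1.64 ± 0.29, so the gene was lower than both even though IgG lay 0.88 ± 0.31 above the input. With a pseudocount of 1 its HuD minus IgG was -3.13. A second probe set, 1420165_s_at, read 1.92, 3.83 and 0.992 on the HuD arrays, 79.3 and 56.1 on the IgG arrays and 45.0 in the input, and was lower than both. The third, 1449756_at, lay between 0.890 and 1.81 on every array and carried no usable difference.

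Eif3c encodes a core subunit of eIF3, the initiation factor that brings the small ribosomal subunit to mRNAs, and all 4 of its probe sets were lower than both. The brightest, 1456374_x_at, read 370, 606 and 355 on the HuD arrays, 2633 and 2126 on the IgG arrays and 1613 in the input. Every HuD array lay far below every other array. Its differences were -2.37 ± 0.28 to IgG and -1.83 ± 0.35 to input, and the height of IgG over input, 0.54 ± 0.38, made up 22.9% of the first. For 1456083_x_at the IgG signals of 1692 and 1725 stood level with the input at 1665, and HuD read 276, 352 and 438. For that probe set HuD was -2.19 ± 0.24 against IgG and -2.15 ± 0.31 against input, so nearly all of the difference was a loss relative to the input. The remaining probe sets, 1415858_at and 1415859_at, gave -1.76 and -1.85 against IgG and -2.20 and -1.48 against input. By their name ending, x_at probe sets hold probes that can match other sequences too, while these last ones do not carry it. The same reserve applies to the x_at probe sets of Sgf29 and Irak1, and to the s_at probe sets of Dnajc17 and Inf2, whose ending marks probes shared by transcripts of several genes.

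Dvl1 and Irak1, both signalling proteins, were lower than both on their brightest probe sets, with IgG above the input in each. Dvl1 encodes a dishevelled protein, which relays the Wnt signal from Frizzled receptors. Probe set 1437301_a_at read 453, 670 and 491 on the HuD arrays, 3000 and 2568 on the IgG arrays and 1302 in the input. Its IgG signals were about as far above the input as its HuD signals were below, with HuD minus IgG of -2.32 ± 0.25, HuD minus input of -1.25 ± 0.31 and IgG minus input of 1.07 ± 0.33. Scaling to the 75th percentile brought HuD minus input to -0.89 and placed Dvl1 with the genes gained on IgG. Irak1 encodes a kinase that relays Toll-like and interleukin-1 receptor signals. Probe set 1438120_x_at read 84.0, 111 and 83.4 on the HuD arrays, 545 and 602 on the IgG arrays and 287 in the input. The groups did not overlap. Its HuD minus IgG was -2.28 ± 0.22 and its HuD minus input -1.36 ± 0.28, and IgG over input made up 40.5% of the former.

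Inf2 encodes a formin that both polymerises and severs actin filaments. Probe set 1436216_s_at read 112, 179 and 109 on the HuD arrays, 1246 and 453 on the IgG arrays and 495 in the input. HuD lay below all others, but the IgG arrays fell on either side of the input. HuD minus IgG was -2.28 ± 0.40 and HuD minus input -1.70 ± 0.51, while IgG minus input was 0.58 ± 0.54. The IgG height rested on 1 array, since IgG minus input was -0.12 without IgG 1 and 1.28 without IgG 2. HuD minus IgG was -1.58 and -2.98 in the same order, and Inf2 was lower than both either way.

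In Kcnip3, Pla2g7 and Cuedc2 IgG lay below the input, the order of controls that their choice by depth below the input favours, as choice by depth below IgG favours IgG above the input in the other members. Kcnip3 encodes a calcium-binding protein, also called DREAM or calsenilin, which regulates Kv4 potassium channels and represses transcription. Probe set 1418544_at read 7.52, 14.5 and 9.15 on the HuD arrays, 132 and 123 on the IgG arrays and 355 in the input. The signal stepped down from input to IgG to HuD, with no overlap. HuD minus input was -3.19 ± 0.31, 9.15-fold on this scale, HuD minus IgG was -1.92 ± 0.24 and IgG minus input was -1.28 ± 0.33. All HuD signals lay under the pseudocount, so the size depends on it: HuD minus input was -5.01 with a pseudocount of 1 and -2.50 with 64.

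Pla2g7 encodes a secreted phospholipase that hydrolyses platelet-activating factor. Its only probe set, 1430700_a_at, read 44.8, 61.2 and 28.3 on the HuD arrays, 142 and 139 on the IgG arrays and 468 in the input. HuD minus input was -2.73 ± 0.33 and IgG minus input was -1.54 ± 0.35, so both pulldowns lay below the input. Its HuD signals lay near the pseudocount, and HuD minus input was -3.42 with a pseudocount of 1 and -2.30 with 64. HuD minus IgG was -1.19 ± 0.26, the smallest among the brightest probe sets of the members, and it was -0.87 with scaling to the 75th percentile, which no longer meets the limit of 1.

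Cuedc2 encodes a CUE-domain protein, a class that binds ubiquitin. Probe set 1431145_a_at read 102, 187 and 129 on the HuD arrays, 910 and 447 on the IgG arrays and 1025 in the input. One IgG array lay near the input and the other well below it, and HuD lay below both. HuD minus input was -2.66 ± 0.43 and HuD minus IgG was -2.00 ± 0.34, which became -1.51 without IgG 1 and -2.49 without IgG 2.

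**Figure D3:**
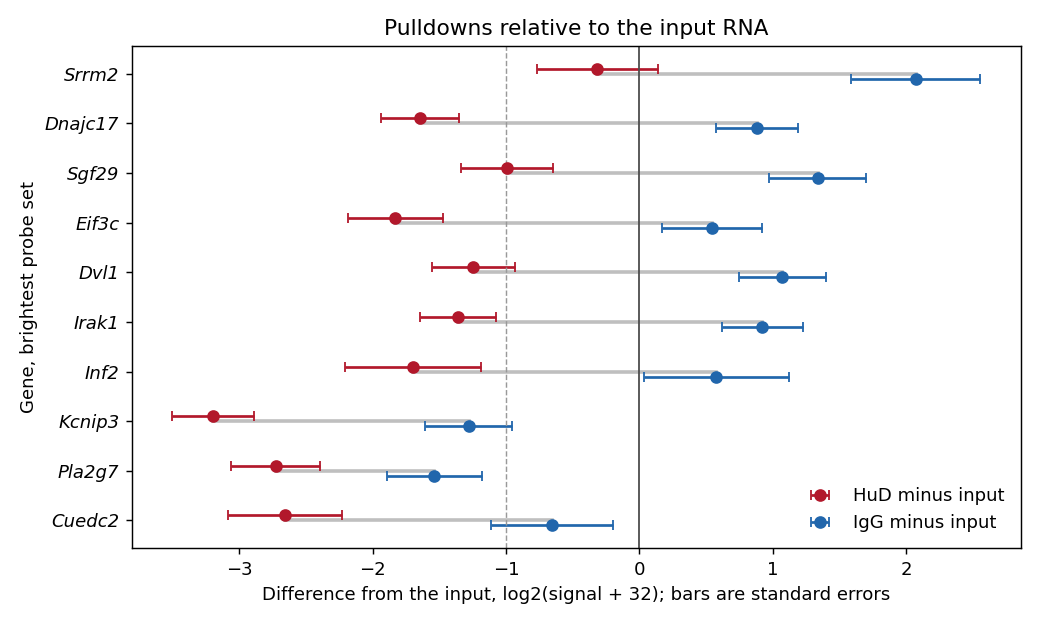
For the brightest probe set of each gene, the HuD and IgG differences from the input are drawn on the log2(signal + 32) scale. IgG lies above the input for 7 genes, most for Srrm2 at 2.07, and below it for Kcnip3, Pla2g7 and Cuedc2.

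Among the brightest probe sets, HuD minus IgG ran from -2.53 to -1.19 with a median of -2.30, and HuD minus input from -3.19 to -0.32 with a median of -1.67. IgG minus input ran from -1.54 to 2.07 with a median of 0.73. The sign of IgG minus input followed the ranking a gene was chosen from, above 0 for the 7 chosen against IgG and below 0 for the 3 chosen against input, so nothing is read from it. In limma, 0 of 45037 probe sets passed an adjusted p of 0.05 for IgG against input, and 3326, or 7.39%, had an unadjusted p under 0.05. HuD 2 was the brightest HuD array for all 10 genes and IgG 1 the brighter IgG array for 8 of them. Within the le1 arrays HuD minus IgG ran from -3.14 to -1.18, and within the e1_le1 arrays from -2.66 to -1.19, each with 1 IgG array. All 10 lay at least 1 lower in each, but the genes were chosen on these same arrays, so nothing is read from it.

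Probe sets of 1 gene did not always tell the same story. Of the 16 probe sets that were not a gene's brightest, 7 lay at least 1 below IgG without overlap, beside 8.04% of all probe sets, and nothing is read from the excess. Their HuD minus IgG ran from -2.19 to -0.02, with a median of -0.91. For Srrm2, 1427902_at read 93.4, 116 and 110 on the HuD arrays, 201 and 109 on the IgG arrays and 73.3 in the input, which is an overlap with IgG and a HuD level above the input. For Irak1 the dimmer probe sets 1438857_x_at, 1448668_a_at and 1460649_at gave -0.83, -0.99 and -0.48 against IgG, all short of 1. The second probe sets of Dvl1 and Inf2 lay at -1.01 and -1.02 against IgG and at -0.89 and -0.63 against input. For Kcnip3 the dim probe set 1449129_a_at read 36.1, 4.42 and 36.7 on the HuD arrays, 25.2 and 37.1 on the IgG arrays and 31.0 in the input, with complete overlap. For Cuedc2 the dim probe set 1418385_at overlapped too, with HuD 1 at 39.4 above IgG 2 at 37.4 and the input at 38.4. It gave -0.36 against IgG and -0.19 against input, so it did not show the fall of the brightest probe set. Averaging a gene's probe sets gave -2.04 and -1.92 for Eif3c against IgG and input, and -1.03 and 0.16 for Srrm2. The averages for Cuedc2 were -1.18 and -1.42 in the same order. Those for Dnajc17 were -1.36 and -0.94, and those for Irak1 -1.15 and -0.89, so both genes fell short of 1 against the input.

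**Figure D4:**
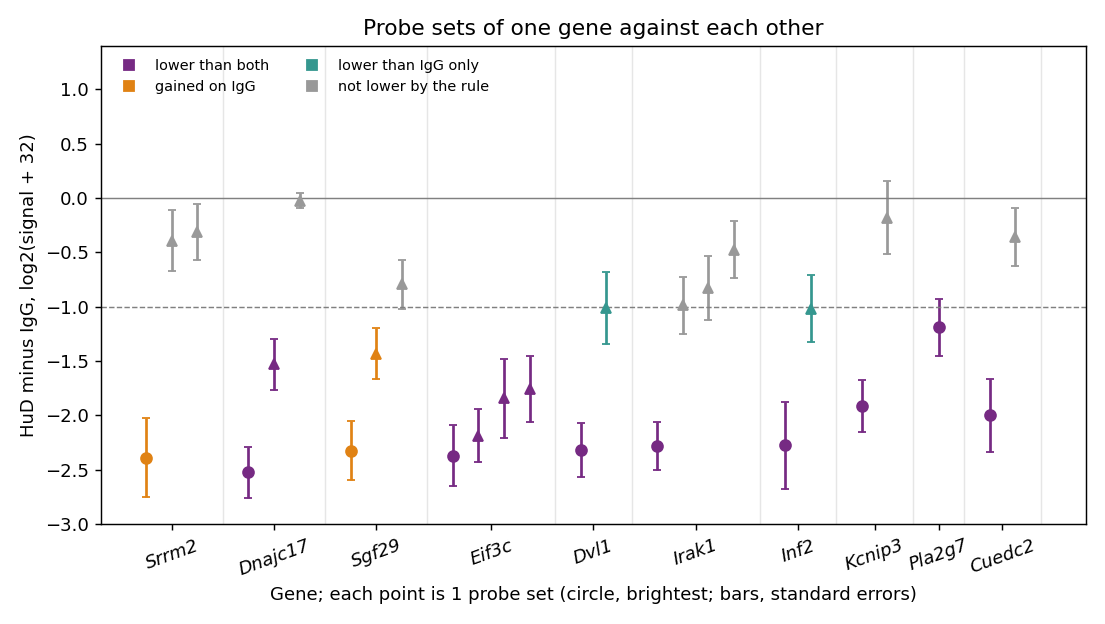
Each point is the HuD minus IgG difference of 1 probe set on the log2(signal + 32) scale, grouped by gene. The 4 probe sets of Eif3c lie between -2.37 and -1.76, whereas those of Srrm2 spread from -2.39 to -0.31.

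Related genes were then read for each member, from 10 lists drawn up by relation to a member, each gene through its brightest probe set. Of 130 listed genes 124 were measured. In limma with Benjamini-Hochberg adjustment over all probe sets, 17 were lower in HuD than in IgG and 10 higher, beside 12.1% lower and 8.35% higher among all genes. Against the input 10 were lower and 5 higher, beside 4.99% and 4.23% of all genes. These counts depend on single arrays: 0 were lower than IgG without HuD 1 and 1 without HuD 3, and 0 passed against the input in either direction when any 1 HuD array was left out. For each list below, the shares of all genes given here are the background. The medians over all genes were -0.11 against IgG and -0.04 against input.

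Of the eIF3 subunits other than Eif3c, 10 were measured. Of these, 7 were lower in HuD than in IgG and 0 higher, with a median of -1.20 beside -0.11 over all genes, and 4 were lower than input, with a median of -1.55 beside -0.04. Eif3i, Eif3k, Eif3h, Eif3f, Eif3d, Eif3m and Eif3b fell against IgG. Eif3i read 1114, 1589 and 1731 on the HuD arrays, 4382 and 7232 on the IgG arrays and 3735 in the input, a difference to IgG of -1.93 ± 0.31 (limma adjusted p = 0.00799). Eif3h read 349, 489 and 311 on the HuD arrays, 939 and 1272 on the IgG arrays and 1447 in the input. Its differences were -1.46 ± 0.26 to IgG (limma adjusted p = 0.0117) and -1.86 ± 0.33 to input (limma adjusted p = 0.0237). In both subunits every HuD array lay below every other array.

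Eif3k, Eif3l and Eif3m also fell against the input, by differences of -1.76, -1.96 and -2.20. Eif3d and Eif3f gave -1.72 and -1.32 against IgG, and Eif3b gave -0.90. Eif3e at -0.77 and Eif3l at -1.05 did not pass against IgG (limma adjusted p = 0.0572 and 0.0538). Of the 4 probe sets of Eif3e, 1 dimmer one was called lower. Eif3a, the largest subunit of the complex, read 715, 529 and 624 on the HuD arrays, 582 and 463 on the IgG arrays and 556 in the input, a difference of 0.24 ± 0.23. Its groups overlapped, but 1 of its 4 probe sets was called lower, at -1.17. Both probe sets of Eif3i were called lower, as were 1 of 2 for Eif3d and Eif3m and 1 of 3 for Eif3h. The number of subunits lower than IgG was 0 without HuD 1, 1 without HuD 3, 4 without IgG 1, with averaged probe sets or with the title ending as a block, and 5 under scaling to the 75th percentile, while the median of the list stayed between -1.41 and -0.83 under every alternative run.

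**Figure D5:**
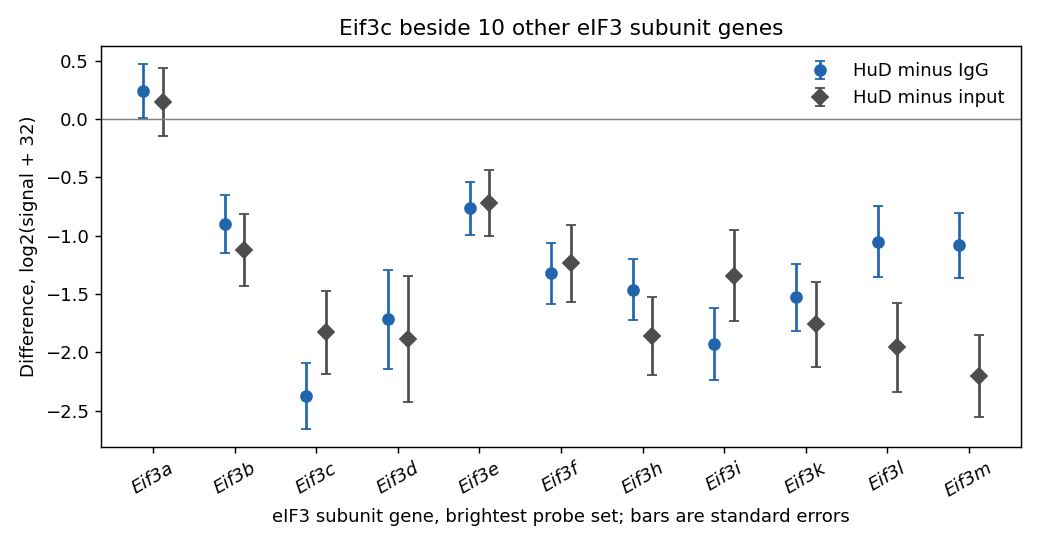
HuD minus IgG and HuD minus input differences of Eif3c and the 10 other measured eIF3 subunits are drawn with their standard errors on the log2(signal + 32) scale. Eif3a lies at 0.24 against IgG and every other subunit lies below 0.

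Few of the genes listed as related to Srrm2, Dnajc17 and Sgf29 passed the test. Of the Srrm paralogs Srrm1, Srrm3 and Srrm4, 0 passed against IgG on their brightest probe sets, at 0.77, -0.71 and 0.77. Over all their probe sets, 1 of 7 for Srrm1 was called higher and 1 of 3 for Srrm3 was called lower. Of 8 genes for DnaJ proteins, not all of them spliceosomal, and for splicing factors, 1 was lower, Prpf8, a core component of the spliceosome. Prpf8 read 128, 169 and 123 on the HuD arrays, 526 and 396 on the IgG arrays and 509 in the input. It fell by 1.52 ± 0.24 on the log2 scale against IgG (limma adjusted p = 0.00761) and by 1.66 ± 0.30 against input (limma adjusted p = 0.0244). Prpf19 and Dnajc16 gave -0.91 and 0.71 against IgG on their brightest probe sets and did not pass. Dnajc16 has 2 probe sets, and its dimmer one was called lower, at -0.91. Of 20 SAGA and ATAC subunits 4 were lower and 1 higher than IgG, with a median of -0.36. Kat2a, the acetyltransferase, gave -1.50 ± 0.40 (limma adjusted p = 0.0418), and Eny2, of the deubiquitinase module, gave 2.15 ± 0.32 (limma adjusted p = 0.00629). Eny2 has 6 probe sets and Kat2a 3, of which 1 each was called.

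Around Dvl1, 6 of 23 Wnt pathway genes were higher in HuD than in IgG and 0 lower, beside 8.35% and 12.1% of all genes. Their median was 0.13, beside -0.11 over all genes. The kinases Csnk1e, Gsk3b and Csnk1a1 led, at 2.11, 1.94 and 1.75. Gsk3b, a kinase of the β-catenin destruction complex, read 3227, 4360 and 4100 on the HuD arrays, 934 and 1033 on the IgG arrays and 952 in the input, with no overlap (limma adjusted p = 0.0041). Of their probe sets, 2 of 3 for Csnk1e, 3 of 6 for Gsk3b and 2 of 5 for Csnk1a1 were called higher. Dvl2 and Dvl3, the other dishevelled genes, were dim, and gave -0.30 and -0.01 without passing. The number higher was 2 without HuD 1 and 8 under scaling to the 75th percentile.

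Around Irak1, 1 of 18 measured genes was lower than IgG and 1 higher, with a median of 0.16. Tab2, an adaptor of the kinase TAK1, read 550, 446 and 554 on the HuD arrays, 1147 and 1179 on the IgG arrays and 823 in the input, a difference to IgG of -1.13 ± 0.21 (limma adjusted p = 0.0136). It lay -0.65 from the input, so it was gained on IgG by the same description as Srrm2. Peli1, a ubiquitin ligase, was higher at 1.64 on its brightest probe set, and of its 5 probe sets 2 were higher and 1 lower. Irak2 and Irak3 gave 0.23 each and Il1rap 1.08, without passing.

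Around Inf2, 1 of 12 measured formins was lower than IgG, Fhod3 at -1.23 ± 0.26 (limma adjusted p = 0.0199), and the median was -0.41. Daam1 read 2468, 3932 and 2796 on the HuD arrays, 8002 and 4688 on the IgG arrays and 1086 in the input. It gave -1.02 ± 0.32 against IgG (limma adjusted p = 0.0717) with IgG 2.46 ± 0.43 above the input, so its HuD signal was also above the input. Daam2 gave -0.75 and did not pass.

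Around Kcnip3, 2 of 15 measured KChIP, Kv4 and related calcium-sensor genes were lower than IgG and 2 others lower than input, with medians of -0.46 and -0.67. Kcnip2 gave -1.13 against IgG (limma adjusted p = 0.0363), and Hpca and Ncs1 gave -1.24 and 1.11 without passing. Of the 3 probe sets of Kcnip2, 1 was called. Kcnip1 and Kcnip4 fell against the input, by differences of -1.75 and -1.25. Against IgG Kcnip1 gave -1.10 on its brightest probe set and narrowly missed the threshold (limma adjusted p = 0.0507), while Kcnip4 gave -0.11. Of the 4 probe sets of Kcnip1, 1 dimmer one was called lower. Every HuD array of Kcnip1 lay below both IgG arrays and the input, so it met the description of lower than both. Of the 15 genes 4 met it, Kcnip2 and Hpca among them, beside 8.19% of all genes. Kcnip4 read 269, 295 and 241 on the HuD arrays, 267 and 319 on the IgG arrays and 682 in the input, so HuD and IgG overlapped and both lay well below the input.

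Around Pla2g7, 1 of 9 genes of platelet-activating factor metabolism was lower than IgG and 1 higher, with a median of -0.04. Pafah1b2, a catalytic subunit of the intracellular acetylhydrolase, read 1859, 1913 and 1673 on the HuD arrays, 303 and 457 on the IgG arrays and 607 in the input, a difference of 2.19 ± 0.24 (limma adjusted p = 0.00355). Pla2g6 gave -1.15 (limma adjusted p = 0.028), and 1 of its 3 probe sets was called. Pafah1b3 and Pafah2 gave -0.78 and -0.65 against IgG without passing, and Pafah1b3 fell against the input by a difference of -1.84. Of 9 measured CUE-domain genes related to Cuedc2, 1 was lower, Tab2, and 1 higher, Smarcad1 at 1.12 (limma adjusted p = 0.0328), with a median of -0.51. The dimmer probe set of Smarcad1 gave -0.36 and was not called. Cuedc1 and Ascc2 gave -0.51 and -0.95 and did not pass.

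Chromosomal position and promoter composition, which the choice did not use, are given as a description. Eif3c and Sgf29 lie on the same chromosome with 4 protein-coding genes between them in the RefSeq table of GRCm38.p6, of which Cln3, Apobr and Nupr1 were measured. These gave -0.41, 0.15 and -0.94 against IgG, with adjusted p-values in limma of 0.309, 0.588 and 0.0691. GC content in 15 RefSeq promoter windows of the members ran from 50.3% to 73.3% with a median of 60.3%. The median was 52.7% over all 32851 windows and 61.7% over 9720 windows of 7381 brighter genes.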

How the data were processed

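The deposited table held linear intensities, with 1 signal for each probe set on each array, already scaled by the authors to a common trimmed mean, as the values show; the software was not given in the sources used here, and no detection calls were in the table used. In the platform annotation 34958 probe sets had a single gene symbol, which alone were named, 932 had several and 9211 lacked one. All 10 members were found in the RefSeq gene table of GRCm38.p6, used for names and neighbours, and RefSeq promoter windows were used for base composition. Signals were transformed as log2(signal + 32). Group means over the 6 arrays were fitted by limma 3.58.1 under R 4.3.3 (eBayes with a trend, 3 residual and 5.2 prior degrees of freedom), and p-values were adjusted by Benjamini-Hochberg over 45037 probe sets that are not array controls, called under 0.05. Precision is limited by the small number of arrays. Since separate preparations are not stated, p-values reflect a spread between arrays that could be purely technical. Arrays were numbered in order of deposit, as names only.

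The members and gene lists were chosen with earlier results of these data known. Named genes were the members, their direct paralogs, the eIF3 subunits and up to 3 genes of each list with the largest absolute HuD minus IgG difference; Cln3, Apobr and Nupr1 were named for their position, and Pygb and Pld3 for the edge of the rankings. On 5 simulated data sets of 45037 probe sets with 200 changed, 98.1% of 4-fold and 99.8% of 8-fold changes between HuD and IgG were recovered. These shares describe the simulated data only, and whether they hold for the measured arrays was not tested. On the measured arrays the related genes called lower than IgG went from 17 to 0 without HuD 1. Alternatives were other scalings, pseudocounts, sizes, a filter on dim probe sets, averaged probe sets, blocks by title ending and title number, and each pulldown array left out.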

Additional observations from a re-analysis of the deposited data

How the results depend on the processing

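The 12 member probe sets lower than both numbered 9 to 17 over the alternatives run, and no member difference past the size of 1 changed sign. The count gained on IgG was 5 with scaling to the 75th percentile, which added the brightest probe set of Dvl1 and 1420165_s_at of Dnajc17, and 2 to 5 when 1 array was left out; Srrm2 was gained on IgG in each. Pla2g7 left the lower-than-both group under that scaling, quantile normalization and a pseudocount of 64. Against medians of -0.08 and 0.04 for HuD minus IgG and HuD minus input over all probe sets, the 75th percentile gave 0.24 and 0.39.

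Related genes lower than IgG (17) numbered 11 under quantile normalization, 34 among probe sets above the median signal, where fewer tests were adjusted for, and 0 to 16 with 1 array left out. Those higher than IgG (10) numbered 27 under the 75th percentile, 6 with averaged probe sets and 3 to 10 with 1 array left out. Those lower than input (10) numbered 19 under median centring, 20 above the median signal and 0 to 16 with 1 array left out. Those higher than input (5) numbered 14 under the 75th percentile, 10 above the median signal, 2 with averaged probe sets and 0 to 8 with 1 array left out. Other causes were not tested.

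With the title ending as a replicate block, 11 were lower than IgG, and 0 were lower and 0 higher than input. With the title number as a replicate block, 24 were lower and 12 higher than IgG. The labels do not say that either marks a shared preparation. Deviations of the le1 HuD and IgG arrays from their group means correlated at 0.184 over 22518 probe sets. Signals near background limit Kcnip3 and the dimmer probe sets of Dnajc17, Srrm2 and Cuedc2.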
